A study of Mus musculus with 6 samples.

Results

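Inflammasomes are cytosolic protein complexes that turn the detection of microbes or damage into cleavage of gasdermins, pore-forming proteins that open the plasma membrane in the lytic cell death called pyroptosis. The 10 mouse genes examined here were chosen by name as parts of that pathway, and all 10 were found in a table of 54446 gene identifiers. They are the sensors Nlrp3, Nlrp6 and Nlrc4, the adaptor Pycard (ASC), the inflammatory caspases Casp1 and Casp4 (caspase-11 in older mouse usage), the general executioner Gsdmd, and the gasdermin C paralogs Gsdmc2, Gsdmc3 and Gsdmc4. In the intestine, Nlrp6 and the gasdermin C genes are known mainly from the epithelium, Nlrc4 acts with NAIP proteins that bind bacterial flagellin and secretion-system parts, and caspase-11 binds lipopolysaccharide in the cytosol. Pyroptosis is of interest in necrotizing enterocolitis (NEC), a disease of the immature gut.

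Intestinal RNA of 3 samples from pups put through an NEC protocol was set against that of 3 samples from dam-fed pups, all of WT genotype and all taken at 96 h. NEC pups were gavaged with 40 µl of 33% Esbilac formula at intervals of 4 h. At intervals of 12 h they were also held for 100 s in 99.9% nitrogen and then for 10 min at 4 °C. Control pups had none of these, so formula, hypoxia and cold cannot be told apart. The strain, sex and age at the start, the intestinal segment, and whether a sample is 1 animal are not stated, so p-values describe sample-to-sample spread that may be partly technical.

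Libraries held between 69441184 and 106304239 counts, and levels are given as CPM, the depth-scaled count after TMM scaling. Control replicate 1 held both Xist (179 CPM) and the Y-linked Ddx3y (19.8 CPM), so it may hold RNA of more than 1 mouse. Control replicate 2 had 344 CPM of Xist and 1.29 CPM of Ddx3y, and the other 4 libraries had 1.17 CPM of Xist or less. In those libraries Ddx3y stood at 25.6, 44.8 and 35.1 CPM in NEC replicates 1 to 3 and at 30.9 CPM in control replicate 3. High Xist was thus seen in control libraries alone. Sex is therefore partly confounded with NEC, and its part in the values below was not tested. Intestinal epithelial markers were abundant in every library, with Epcam between 1833 and 2720 CPM in NEC and between 2234 and 2953 CPM in control. The 7 enterocyte markers summed to between 7523 and 13222 CPM in NEC and to between 11591 and 15566 CPM in control. All 7 had a negative log2 fold change of NEC over control (median -0.24), the lowest that of Fabp1 (-1.82, with overlapping groups). Of these markers, 0 passed the edgeR test described next (1 had an unadjusted p below 0.05, beside 15.6% of all genes tested).

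None of the 10 genes passed the edgeR quasi-likelihood test after Benjamini-Hochberg adjustment over the 19176 genes tested, where 0.704% of genes were called. Gsdmd, Casp1 and Casp4 were nevertheless lower in each NEC library than in any control. NEC and control were likewise separate in 22.4% of the tested genes, with NEC wholly below in 11.6% and wholly above in 10.8%. The same 3 genes had an unadjusted edgeR p below 0.05, as did 15.6% of all genes tested. DESeq2, which called 7.71% of the genes to which it gave an adjusted p, called Gsdmd and Casp1, both lower in NEC. By limma-voom 0 of the 10 were called, but it called only 141 of the 19176 genes tested. The median log2 fold change of the 10 genes, NEC over control, was -0.71, with 8 negative and 2 positive values, beside a median of 0.026 over all genes tested. In simulated data of the same design, 0% of genes with a log2 difference of 1 and 42% of those with 2 were recovered, so absence of a call does not show absence of change. In whole tissue, fewer cells of a type and less RNA per cell cannot be told apart.

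**Figure D1:**
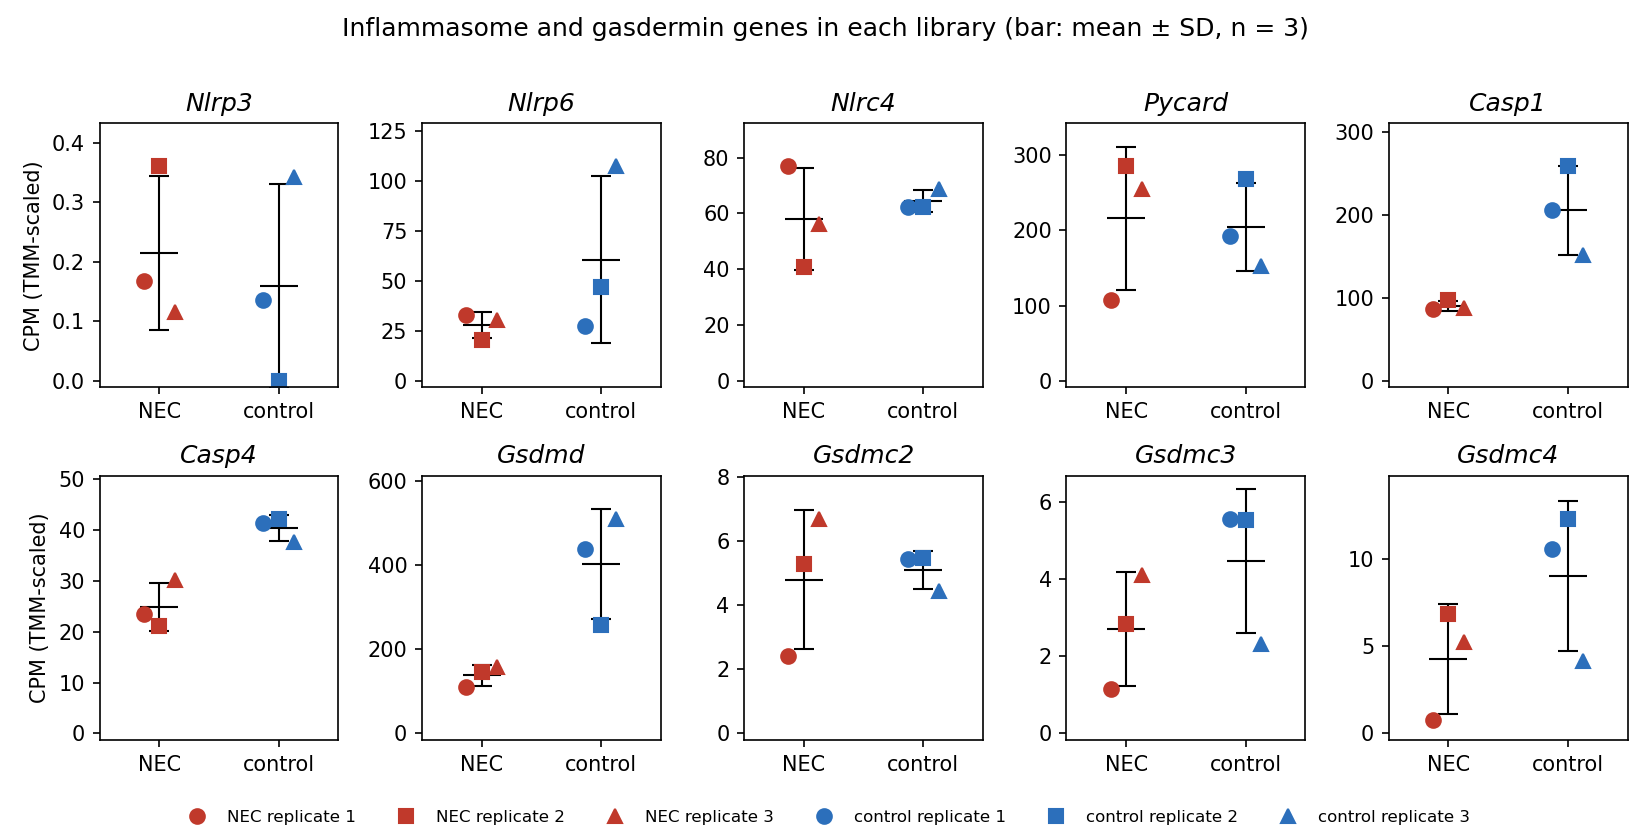
CPM of each of the 10 genes (y axes, each with its own range) in the 3 NEC libraries (red, left) and the 3 control libraries (blue, right), with marker shape giving the replicate number and black bars the mean ± SD (n = 3). The groups are separate for Casp1, Casp4 and Gsdmd and overlap for the other 7 genes.

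Gsdmd, cut by caspase-1 and caspase-11 to release the pore-forming part, had the largest log2 difference of the 10. It lies on chromosome 15 from 75862327 to 75867408 on the plus strand (mm10, ENSMUSG00000022575). Gsdmd stood at 111, 146 and 157 CPM in NEC replicates 1 to 3, against 439, 257 and 509 CPM in control replicates 1 to 3. The highest NEC library reached less than the lowest control library, control replicate 2, and the controls were spread more widely than the NEC libraries. Means were 138 ± 24.3 CPM in NEC and 402 ± 130 CPM in control (SD, n = 3 each), which is 2.91-fold higher in control. The log2 fold change was -1.54 (SE 0.32, 95% interval -2.28 to -0.81), with an edgeR adjusted p of 0.0811 and a DESeq2 adjusted p of 0.00055.

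Casp1 encodes the protease that inflammasomes activate to cut gasdermin D and the precursors of interleukin-1 beta and interleukin-18. It lies on chromosome 9 from 5298517 to 5307265 on the plus strand (ENSMUSG00000025888), just before Casp4, which runs from 5308828 to 5336783 on the same strand (ENSMUSG00000033538). Casp1 stood at 86.6, 97.8 and 88.2 CPM in NEC replicates 1 to 3, against 207, 259 and 151 CPM in control replicates 1 to 3. The NEC libraries were close to each other and all below the controls, whose lowest was replicate 3. Means were 90.9 ± 6.04 CPM in NEC and 206 ± 53.9 CPM in control (SD, n = 3 each), or a log2 fold change of -1.18 with an SE of 0.26 and a 95% interval of -1.78 to -0.58. The edgeR adjusted p was 0.0918 and the DESeq2 adjusted p was 0.0031.

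Casp4, whose product binds lipopolysaccharide and cuts gasdermin D without an inflammasome sensor, stood at 23.5, 21.1 and 30.2 CPM in NEC replicates 1 to 3, against 41.4, 42.2 and 37.5 CPM in control replicates 1 to 3. The groups did not overlap, and the closest pair was NEC replicate 3 and control replicate 3. Its log2 fold change was -0.70 (SE 0.23, 95% interval -1.23 to -0.16, edgeR adjusted p = 0.213), and DESeq2 did not call it (adjusted p = 0.0906). The sample codes in the labels fall into those that begin AG181017 (NEC replicates 2 and 3, control replicates 1 and 2) and those that begin AG181028 (NEC replicate 1, control replicate 3). Within AG181017 the log2 fold changes were -1.22 for Gsdmd, -1.35 for Casp1 and -0.73 for Casp4. The single AG181028 pair, which has no replicate, gave log2 ratios of -2.20, -0.81 and -0.68 for the same genes. All 3 were lower in NEC within both codes, a direction that groups without overlap fix in advance.

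Of the sensors, Nlrp6, which in mouse epithelium has been tied to mucus secretion and to defence against enteric microbes, had a negative value that rested on control replicate 3. It lies on chromosome 7 from 140920902 to 140929192 on the plus strand (ENSMUSG00000038745). Nlrp6 stood at 33.0, 20.3 and 30.4 CPM in NEC replicates 1 to 3, against 27.4, 47.0 and 107 CPM in control replicates 1 to 3. Control replicate 1 fell within the NEC range, and control replicate 3 was higher than any other library. For Nlrp6 the log2 fold change was -1.12 (SE 0.49, 95% interval -2.25 to 0.0088, edgeR adjusted p = 0.324), and it was -0.42 without control replicate 3.

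Nlrc4, on chromosome 17 from 74425438 to 74459142 on the minus strand (ENSMUSG00000039193), stood at 77.0, 40.8 and 56.3 CPM in NEC replicates 1 to 3, against 62.2, 62.2 and 68.9 CPM in control replicates 1 to 3. The NEC libraries lay on both sides of the controls. The log2 fold change was -0.15 (SE 0.27, 95% interval -0.78 to 0.48, edgeR adjusted p = 0.849), so the interval leaves room for a difference of either sign.

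Nlrp3, the sensor best known from macrophages, was close to the detection limit in every library. It lies on chromosome 11 from 59541568 to 59566956 on the plus strand (ENSMUSG00000032691) and had 16, 32 and 8 counts in NEC replicates 1 to 3, against 10, 0 and 36 counts in control replicates 1 to 3. In the whole table low counts divisible by 4 outnumbered their neighbours 1.95 times, so these values may stand for fewer sequenced fragments than they show. The log2 fold change of 0.40 had a 95% interval from -2.39 to 3.20 (edgeR adjusted p = 0.921), and no difference was detectable at this depth.

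Pycard, the adaptor that joins sensors to caspase-1, was among the most abundant of the group. It lies on chromosome 7 from 127989708 to 127993867 on the minus strand (ENSMUSG00000030793). Pycard stood at 107, 285 and 255 CPM in NEC replicates 1 to 3, against 192, 268 and 152 CPM in control replicates 1 to 3. The groups overlapped throughout, with NEC replicate 1 the lowest library and NEC replicate 2 the highest. The log2 fold change was 0.080 (SE 0.40, 95% interval -0.85 to 1.01, edgeR adjusted p = 0.956). Its sign turned under several alternatives, among them removal of NEC replicate 2 (-0.20) or control replicate 3 (-0.11). Pycard was the 1 member whose exons overlap a gene on the opposite strand, Gm45205, over 485 bases, and Gm45205 had at most 1.03 CPM in any library.

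The gasdermin C paralogs lie side by side on the minus strand of chromosome 15, Gsdmc2 from 63824346 to 63845177 (ENSMUSG00000056293), Gsdmc3 from 63857724 to 63878558 (ENSMUSG00000055827) and Gsdmc4 from 63891264 to 63912297 (ENSMUSG00000055748). In adult mouse intestine these genes are known to respond to type 2 cytokines. Their coding sequences in GENCODE M21 are each 1443 bases long, with 97.1% identity between Gsdmc2 and Gsdmc3 and 93.8% between Gsdmc4 and either of the others. The first 60 coding bases, the same in all 3 genes, are shown because they do not tell the genes apart by themselves.
Gsdmc2, Gsdmc3 and Gsdmc4, coding bases 1 to 60: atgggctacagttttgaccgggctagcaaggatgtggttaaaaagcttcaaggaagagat
The 60-base stretch with the most differences is shown beside it, with capitals at the 16 positions where the 3 genes are not all alike.
Gsdmc2, coding bases 803 to 862: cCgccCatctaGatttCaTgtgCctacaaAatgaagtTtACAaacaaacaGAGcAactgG
Gsdmc3, coding bases 803 to 862: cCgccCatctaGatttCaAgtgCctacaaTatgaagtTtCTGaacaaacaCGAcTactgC
Gsdmc4, coding bases from 809 on: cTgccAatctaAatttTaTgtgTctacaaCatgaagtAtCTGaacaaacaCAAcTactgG
Of all 150-base windows of their protein-coding transcripts, 14.9% of those of Gsdmc2, 17.99% of those of Gsdmc3 and 8.83% of those of Gsdmc4 occur word for word in a transcript of another gene of the family. The same search, which covered both strands, gave 0% for Casp1, Casp4, Gsdmd, Nlrp3, Nlrp6 and Nlrc4, and 9.12% for Pycard. The Pycard windows were all shared with Gm45205, whose exons overlap those of Pycard on the opposite strand, so they are not those of a paralog. How reads that match several genes were counted is not stated, so single gasdermin C values are uncertain and the sum is given as well.

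Gsdmc2 stood at 2.42, 5.28 and 6.70 CPM in NEC replicates 1 to 3, against 5.45, 5.46 and 4.43 CPM in control replicates 1 to 3. Gsdmc3 stood at 1.16, 2.84 and 4.11 CPM in NEC replicates 1 to 3, against 5.57, 5.55 and 2.32 CPM in control replicates 1 to 3. Gsdmc4 stood at 0.744, 6.83 and 5.24 CPM in NEC replicates 1 to 3, against 10.5, 12.3 and 4.13 CPM in control replicates 1 to 3. NEC replicate 1 was the lowest library for each of the 3, and control replicate 3 lay within the NEC range for each. Log2 fold changes were -0.092 (SE 0.41) for Gsdmc2, -0.73 (SE 0.55) for Gsdmc3 and -1.07 (SE 0.75) for Gsdmc4, with edgeR adjusted p between 0.556 and 0.952.

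Summed, the 3 paralogs reached 4.33, 14.95 and 16.0 CPM in NEC replicates 1 to 3, against 21.6, 23.3 and 10.9 CPM in control replicates 1 to 3. Control replicate 3 lay below 2 of the 3 NEC libraries. For the sum the log2 fold change was -0.66 (SE 0.52, 95% interval -1.87 to 0.55, edgeR adjusted p = 0.608). It was -0.26 without NEC replicate 1, and between -0.95 and -0.46 when another library was left out. With the sample code as a term it was -0.80 (edgeR adjusted p = 0.146), and it was -0.56 within AG181017 and -1.33 in the unreplicated AG181028 pair. Gsdmc4 made up 17.2%, 45.7% and 32.7% of the sum in NEC replicates 1 to 3 and 48.9%, 52.7% and 38.0% in control replicates 1 to 3. Gsdmc2 made up 55.9%, 35.3% and 41.7% in NEC and 25.3%, 23.4% and 40.7% in control. Control replicate 3 had shares within the NEC range for both genes, and the other 2 controls lay outside it. The family's remaining gene, Gsdmc, had 23, 4 and 8 counts in NEC and 6, 51 and 12 counts in control and did not pass the low-count filter.

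**Figure D2:**
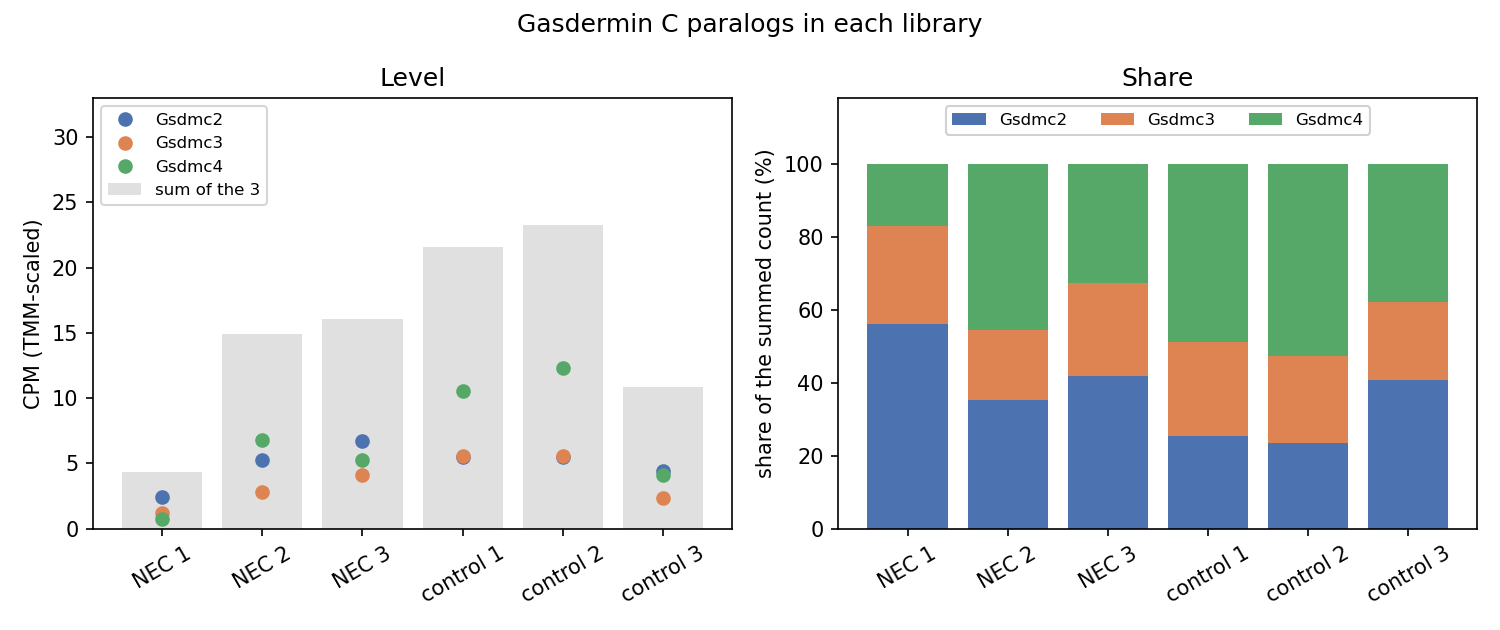
Left, CPM of Gsdmc2, Gsdmc3 and Gsdmc4 (points) and of their sum (grey bars) in each library. Right, the share of each paralog in the summed count, in percent, in the same libraries: the Gsdmc4 share runs from 17.2% in NEC replicate 1 to 52.7% in control replicate 2.

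Scaled by exon length, the group spanned more than 3 orders of magnitude, and Gsdmd, Casp1 and Pycard led in both groups. In NEC, Casp1 (60.7 ± 4.03 CPM per kb), Gsdmd (58.1 ± 10.2) and Pycard (56.8 ± 25.1, SD, n = 3 each) had overlapping ranges. In control, Gsdmd (169 ± 54.8 CPM per kb) and Casp1 (137 ± 35.98) overlapped each other and both lay above Pycard (53.7 ± 15.5, SD, n = 3 each). Next came Nlrc4, at 12.1 ± 3.77 CPM per kb in NEC and 13.4 ± 0.807 in control. Casp4 and Nlrp6 followed by mean, Casp4 at 6.71 ± 1.27 CPM per kb in NEC and 10.9 ± 0.673 in control. Nlrp6 stood at 5.49 ± 1.32 in NEC and, above Casp4, at 11.9 ± 8.21 in control, with ranges that overlapped those of Casp4 in both groups. In control the Nlrp6 range (5.40 to 21.1) also spanned that of Nlrc4 (12.9 to 14.3). The gasdermin C genes ranged between means of 1.16 and 2.07 CPM per kb in NEC and between 1.92 and 4.30 in control, and Nlrp3 was last at 0.053 ± 0.032 in NEC and 0.039 ± 0.042 in control. Lengths are those of all annotated exons of a gene joined, for instance 3800 bases for Pycard and 1497 for Casp1. No other length was tried, so the order between genes may depend on this choice.

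**Figure D3:**
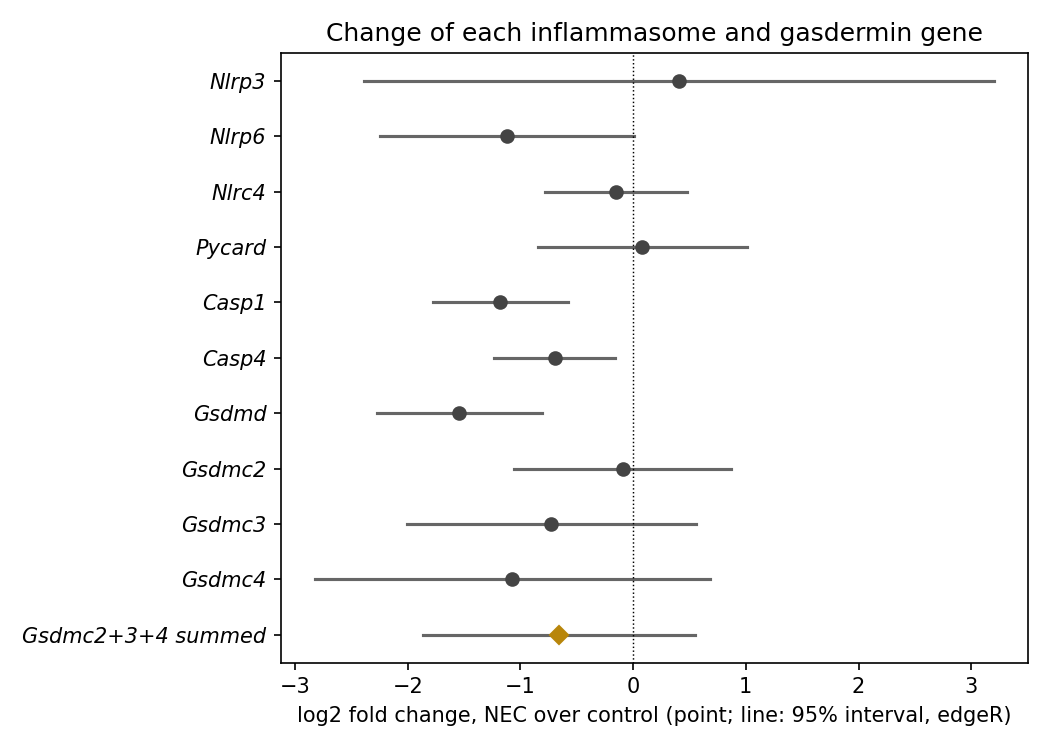
Log2 fold change of NEC over control (points) with its 95% interval (lines) for each of the 10 genes and for the 3 gasdermin C paralogs summed (diamond). The intervals of Casp1, Casp4 and Gsdmd lie below 0, before any adjustment for the number of genes tested, and those of the other 7 genes and of the sum include 0.

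Leaving out any 1 library kept Gsdmd between -1.78 and -1.34, Casp1 between -1.37 and -0.98 and Casp4 between -0.86 and -0.60. Without control replicate 1, the library with both Xist and Y-linked counts, the log2 fold changes were -1.48 for Gsdmd, -1.18 for Casp1 and -0.68 for Casp4. Nlrp6 ran from -1.47 without control replicate 1 to -0.42 without control replicate 3. Of the remaining genes, Gsdmc2 was positive without NEC replicate 1 (0.23) and Nlrc4 without NEC replicate 2 (0.047).

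**Figure D4:**
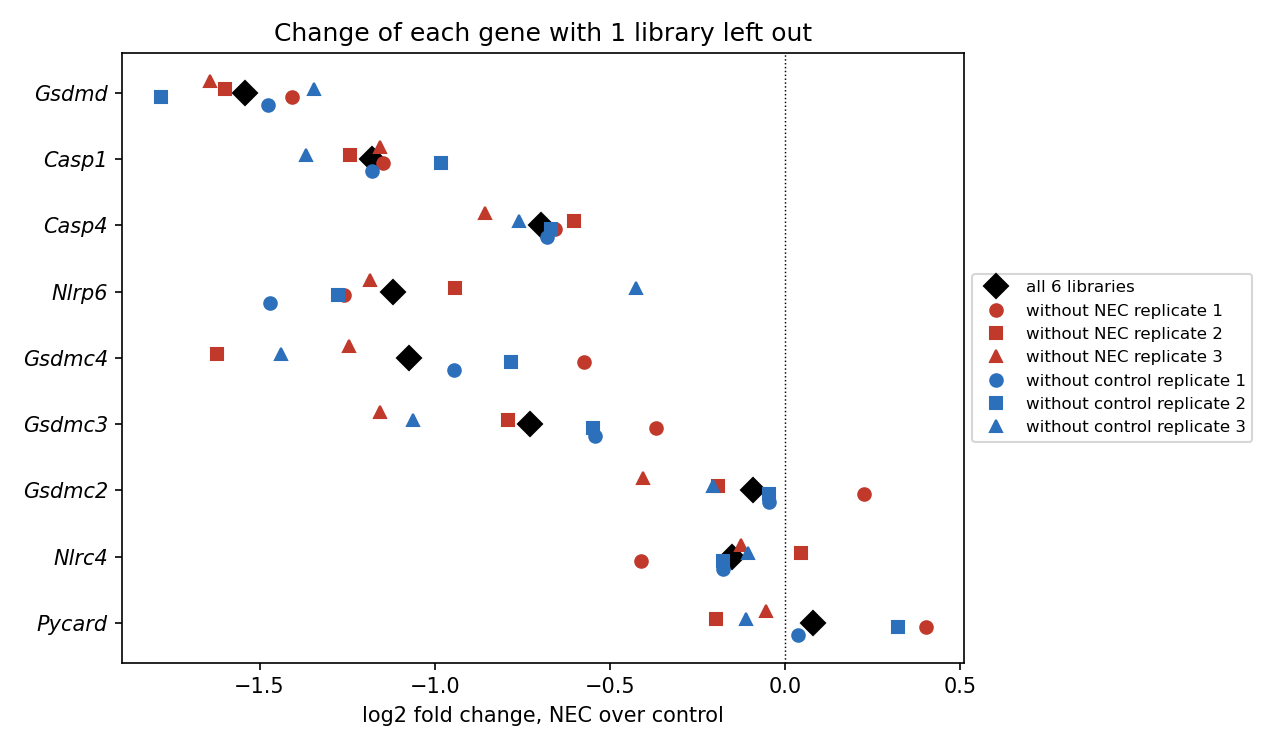
Log2 fold change of NEC over control for 9 of the 10 genes with all 6 libraries (black diamonds) and with 1 library left out (red, an NEC library; blue, a control library; shape, its replicate number). Gsdmd, Casp1, Casp4, Nlrp6, Gsdmc4 and Gsdmc3 stay below 0 in all of these fits, while Gsdmc2, Nlrc4 and Pycard cross it.

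Genes around the 10 were grouped into 8 lists by role. The 9 tested of 11 other sensors had a median log2 fold change of -0.92, with 6 negative and 3 positive values, and 0 passed the edgeR test. Of the 9, 4 had an unadjusted p below 0.05, beside 15.6% of all genes tested. DESeq2 called 3, beside 7.71% of the genes to which it gave an adjusted p, and limma-voom called 0. Aim2 (0.44, SE 0.33) was higher in every NEC library than in any control, as were 10.8% of all genes tested. Mefv (1.30, SE 0.64) and Nlrp10 (0.60, SE 1.52) were positive with overlapping groups. Naip5, which with Nlrc4 detects flagellin, stood at 71.4 ± 22.2 CPM in NEC and 148 ± 15.4 CPM in control (SD, n = 3 each, log2 fold change -1.05, SE 0.27, edgeR adjusted p = 0.128). Its neighbour Naip6 stood at 67.3 ± 27.8 CPM in NEC and 170 ± 38.7 CPM in control (-1.33, SE 0.34). The groups did not overlap for either, nor for Naip2 (-0.96, SE 0.38), which detects a secretion-system rod protein, while Naip1 (-0.62, SE 0.41) overlapped. Of all genes tested, 11.6% lay wholly below control in NEC. Within AG181017 the values were -0.998 for Naip1 and -1.27 for Naip2, and in the AG181028 pair they were 0.48 and -0.16. The NAIP genes share between 0.537% and 8.25% of their 150-base windows with other genes, so counts may be shared between them. Nlrp9b, a sensor of viral RNA in mouse intestinal epithelium, stood at 15.8 ± 4.34 CPM in NEC and 42.0 ± 17.96 CPM in control (-1.41, SE 0.40). Naip5, Naip6 and Nlrp9b were named because they had the smallest unadjusted edgeR p of their list. Naip1 and Naip2 were named after their values were seen. The separations given for these genes follow in part from the choice.

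Among the other gasdermins and membrane-rupture genes, 3 of 7 were tested and 0 passed the edgeR test. DESeq2 and limma-voom called 0, and 1 had an unadjusted edgeR p below 0.05, beside 15.6% of all genes tested. Gsdme, another pore-forming gasdermin, went the other way from Gsdmd, at 165, 79.3 and 91.3 CPM in NEC replicates 1 to 3, against 38.2, 62.0 and 16.1 CPM in control replicates 1 to 3. Every NEC library lay above every control library, as in 10.8% of all genes tested (log2 fold change 1.53, SE 0.51, edgeR adjusted p = 0.214). The value was 0.74 within AG181017 and 3.36 in the AG181028 pair. Ninj1, which ruptures the plasma membrane after gasdermin pores form, had a log2 fold change of 0.54 (SE 0.43), and Gsdma, near 0.4 CPM in both groups, of 0.17 (SE 0.70). The ratio of Gsdme to Gsdmd CPM, chosen after the values were seen and given with no test, was 1.49, 0.542 and 0.581 in NEC replicates 1 to 3 and 0.0870, 0.241 and 0.0315 in control replicates 1 to 3. The groups were already separate for both genes, in opposite directions, which fixes the separation of this ratio in advance. The ratio is not scaled by exon length. Per kb of exon, Gsdme averaged 8.78 CPM in NEC and 3.04 in control, against 58.1 and 169 for Gsdmd.

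Of 9 other proteases that cut gasdermins, 7 were tested, 0 passed the edgeR test, and the median log2 fold change was -1.16. Of the 7, 3 had an unadjusted p below 0.05, beside 15.6% of all genes tested. DESeq2 called 3, beside 7.71% of the genes to which it gave an adjusted p, and limma-voom called 0. Casp6 stood at 24.6 ± 4.97 CPM in NEC and 85.7 ± 38.05 CPM in control (SD, n = 3 each, log2 fold change -1.80, SE 0.37, edgeR adjusted p = 0.0797). Its groups did not overlap, with NEC wholly below control as in 11.6% of all genes tested. Without control replicate 2, 1 protease of the list passed the edgeR test. Casp8, which cuts gasdermin C in human cells, stood at 93.4 ± 11.8 CPM in NEC and 95.2 ± 17.99 CPM in control (SD, n = 3 each), with a log2 fold change of -0.028 (SE 0.23) whose sign turned under library-size scaling (0.034).

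Cytokines and receptors downstream of caspase-1 had a median log2 fold change of 0.84 over 10 tested genes, and 0 passed the edgeR test. Of the 10, 3 had an unadjusted p below 0.05, beside 15.6% of all genes tested. DESeq2 called 3, beside 7.71% of the genes to which it gave an adjusted p, and limma-voom called 0. Il1b, the main substrate of caspase-1, had 0.336, 2.35 and 1.35 CPM in NEC replicates 1 to 3, against 0.123, 0.230 and 0.0760 CPM in control replicates 1 to 3 (log2 fold change 3.24, SE 0.84, edgeR adjusted p = 0.129). Il1r2, a decoy receptor for interleukin-1, stood at 7.80 ± 7.63 CPM in NEC and 0.452 ± 0.0938 CPM in control (SD, n = 3 each, log2 fold change 4.10, SE 0.75), and Il18r1 had a log2 fold change of 2.64 (SE 0.83). All 3 were higher in every NEC library than in every control library, as were 10.8% of all genes tested. They were named because they had the smallest unadjusted edgeR p of their list, so this separation follows in part from the choice. Il18, the epithelial substrate of caspase-1, stood at 6.90, 14.95 and 11.9 CPM in NEC replicates 1 to 3, against 19.2, 22.3 and 9.17 CPM in control replicates 1 to 3, with overlapping groups (-0.58, SE 0.42). Neutrophil markers summed to 2.74, 25.3 and 7.04 CPM in NEC replicates 1 to 3, and to between 0.422 and 1.59 CPM in control. NEC replicate 2 had the highest neutrophil sum and the highest Il1b, but the lowest Il1r2 of the NEC libraries, at 3.04 CPM beside 16.6 CPM in NEC replicate 3. Of the 4 tested of 6, 0 passed the edgeR test (3 had an unadjusted p below 0.05, beside 15.6% of all genes tested). S100a8 (log2 fold change 5.22, SE 1.25), S100a9 (4.81, SE 1.19) and Retnlg (3.33, SE 1.34) were higher in every NEC library than in any control. Csf3r went the other way, with a log2 fold change of -0.90 (SE 0.80) and overlapping groups. Mpo was at 0 in NEC replicate 3 and in all controls, and Cxcr2 was at 0 in all controls. Their part in the values of Il1b and Il1r2 was not tested.

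The guanylate-binding proteins and immunity-related GTPases, interferon-inducible proteins that help to expose bacterial lipopolysaccharide to caspase-11, were the list with the most called genes. Each of the 13 tested of 15 had a value below 0 (median log2 fold change -1.72). By edgeR 4 of them fell in NEC, beside 0.443% of all genes tested that were called lower. Gm12250 (Irgb10), which disrupts bacterial membranes in mouse cells and is annotated in GENCODE M21 as a processed pseudogene, stood at 0.294, 0.102 and 0.0718 CPM in NEC replicates 1 to 3, against 6.31, 5.55 and 8.36 CPM in control replicates 1 to 3 (log2 fold change -5.40, SE 0.62, edgeR adjusted p = 0.0243). Irgm2, which in mouse restrains caspase-11 activation, stood at 2.89, 2.90 and 2.46 CPM in NEC replicates 1 to 3, against 15.3, 11.9 and 20.02 CPM in control replicates 1 to 3 (-2.52, SE 0.31, adjusted p = 0.0307). Gbp6 (-2.24, SE 0.35) and Gbp7 (-1.96, SE 0.30) fell as well, both with edgeR adjusted p just above 0.04. Gbp2b (-4.10, SE 0.70) and Igtp (-2.49, SE 0.47) did not pass but did not overlap between groups. For both, NEC lay wholly below control, as in 11.6% of all genes tested. Leaving out libraries moved the count of 4, which was 0 without NEC replicate 3, control replicate 1 or control replicate 3, 1 without NEC replicate 1, and 2 without NEC replicate 2 or control replicate 2. Gbp and immunity-related GTPase genes are close paralogs, and Gbp6 shares exon sequence with Gm43302 on the same strand, as do Gbp7 with Gm43802 and Irgm2 with Igtp, so single values may be mixed.

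Of 8 transcription factors, 1 passed the edgeR test, beside 0.443% of all genes tested that were called lower in NEC. This was Irf1, at 56.7, 38.3 and 69.1 CPM in NEC replicates 1 to 3, against 244, 181 and 213 CPM in control replicates 1 to 3 (log2 fold change -1.96, SE 0.29, edgeR adjusted p = 0.0396). Irf1, an interferon-induced activator, is known to drive several of the GTPase genes above, and part of its exons overlaps Gm17334 on the opposite strand. The call ended when any 1 library was left out, with adjusted p between 0.0535 and 0.222. Irf8 (-0.97, SE 0.43), an activator of NAIP genes in mouse macrophages, did not pass. Like Irf1, Irf8 was lower in every NEC library than in any control, as were 11.6% of all genes tested. Among the triggers and regulators 0 of 9 passed the edgeR test (0 at an unadjusted p below 0.05, and 0 by DESeq2 and by limma-voom), with 0.54 (SE 0.29) for the protease inhibitor gene Serpinb1a, -0.53 (SE 0.35) for Panx1 and 0.57 (SE 0.39) for Pstpip1. In the type 2 cytokine axis 0 of 6 tested genes passed (0 by DESeq2 and by limma-voom). At an unadjusted edgeR p below 0.05 there was 1, beside 15.6% of all genes tested. The interleukin-13 receptor gene Il13ra1 had -0.85 (SE 0.31), the RNA methyltransferase gene Mettl14 -0.35 (SE 0.24) and Stat6 -0.27 (SE 0.27), and Il13 had 0 counts in every library.

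**Figure D5:**
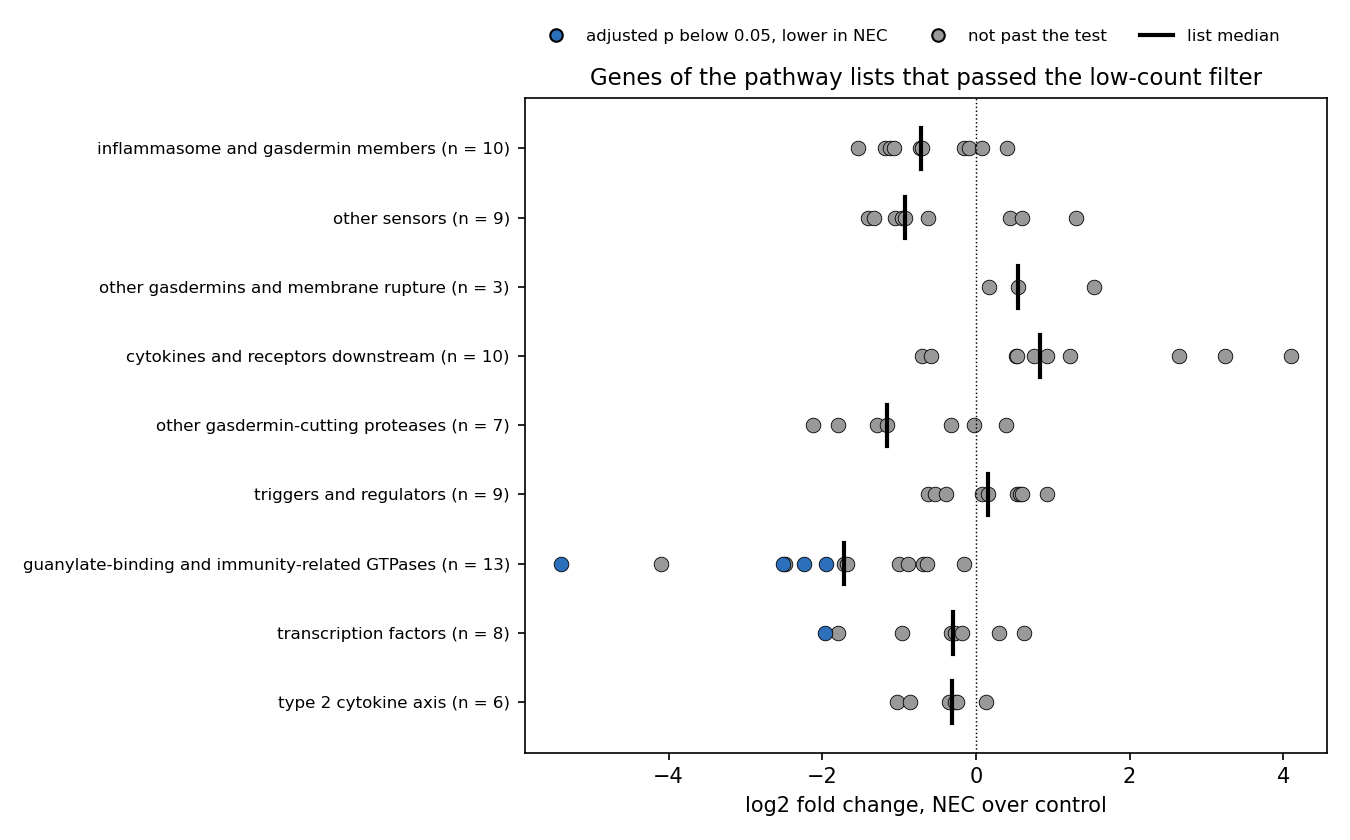
Log2 fold change of NEC over control (x axis) for each gene that passed the low-count filter, by list (rows, with the number tested), with blue points for genes lower in NEC at an edgeR adjusted p below 0.05 and black bars for the list median. The 5 called genes are 4 GTPases and Irf1, and the 10 inflammasome and gasdermin genes have a median of -0.71.

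Promoters were compared because the called GTPases and the caspases were lower in the same libraries. RefSeq windows on GRCm38.p6, from 250 bases before to 50 after a start site, were found for 7 of the 10 genes (Casp1, Casp4, Gsdmc3, Nlrp3, Nlrp6, Nlrc4 and Pycard) in 9 windows, and not for Gsdmd, Gsdmc2 or Gsdmc4. Each was searched on both strands for GAAANNGAAA, the core of an interferon-stimulated response element, and for TTCNNNGAA, the interferon-gamma activated site, which do not overlap in the matches shown. Of all 32851 promoter windows 3.44% hold GAAANNGAAA and 8.30% hold TTCNNNGAA. None of the 9 windows of the inflammasome and gasdermin genes holds either. At these shares 9 windows without a match are not unusual, and both Casp4 windows cover mostly the same bases. Of the 5 called genes, Gbp7, Irgm2, Gm12250 and Irf1 were in the table with 5 windows, of which 4 hold at least 1 of the motifs and 1 of the Irf1 windows holds neither. Among genes that were not called, the windows of Gbp2b (GAAANNGAAA) and Nlrp9b (TTCNNNGAA) hold a match, and those of Gsdme and of the 4 NAIP genes hold none. The windows of Casp1, Casp4 (its upstream start), Irgm2 and Gm12250 are printed with the matches in capitals, to show windows with and without them.
Casp1, chr9:5298267-5298566, plus strand: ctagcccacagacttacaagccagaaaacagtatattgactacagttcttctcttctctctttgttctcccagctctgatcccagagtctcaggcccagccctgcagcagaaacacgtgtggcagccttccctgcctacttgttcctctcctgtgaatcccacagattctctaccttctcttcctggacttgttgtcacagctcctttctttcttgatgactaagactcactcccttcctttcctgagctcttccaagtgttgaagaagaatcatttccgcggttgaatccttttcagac
Casp4, chr9:5308599-5308898, plus strand: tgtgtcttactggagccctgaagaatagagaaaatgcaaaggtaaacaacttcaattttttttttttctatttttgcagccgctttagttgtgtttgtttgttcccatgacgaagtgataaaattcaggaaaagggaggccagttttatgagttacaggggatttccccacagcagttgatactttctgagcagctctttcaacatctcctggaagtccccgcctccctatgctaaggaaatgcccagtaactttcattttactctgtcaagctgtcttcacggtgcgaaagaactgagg
Irgm2, chr11:58214727-58215026, plus strand: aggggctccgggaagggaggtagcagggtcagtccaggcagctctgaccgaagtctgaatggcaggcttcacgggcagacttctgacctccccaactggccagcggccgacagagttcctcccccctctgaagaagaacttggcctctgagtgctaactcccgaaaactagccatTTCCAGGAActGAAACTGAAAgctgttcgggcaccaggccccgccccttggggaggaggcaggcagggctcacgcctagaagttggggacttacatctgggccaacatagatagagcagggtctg
Gm12250, chr11:58183593-58183892, plus strand: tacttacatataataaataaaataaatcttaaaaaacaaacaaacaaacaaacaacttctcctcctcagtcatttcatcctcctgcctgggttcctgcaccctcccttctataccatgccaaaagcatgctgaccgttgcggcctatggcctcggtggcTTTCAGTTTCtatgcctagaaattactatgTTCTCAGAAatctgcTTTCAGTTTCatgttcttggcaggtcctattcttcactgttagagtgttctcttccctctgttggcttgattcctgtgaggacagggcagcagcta
In Irgm2 the TTCNNNGAA match begins 75 bases and the GAAANNGAAA match 64 bases before the start site. In Gm12250 the matches to GAAANNGAAA, both on the opposite strand, begin 91 and 46 bases before it and that to TTCNNNGAA 61 bases before it. The RefSeq start of Gm12250 lies before the start of its GENCODE M21 gene model. A match describes letters in these windows only. The called genes were chosen by their values in these data, and no test compared their windows with those of the members.

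Markers of cells that could carry these genes gave the following sums. For comparison, NEC lay wholly below control in 11.6% of all genes tested and wholly above in 10.8%. An unadjusted edgeR p below 0.05 was found for 15.6% of them, and 0.261% were called higher in NEC. Macrophage markers summed to between 224 and 354 CPM in NEC and to between 331 and 420 CPM in control, with 7 of 8 log2 fold changes positive, 0 of 8 past the edgeR test (2 at an unadjusted p below 0.05). The sum was carried by Csf1r, which averaged 129.8 CPM in NEC and 278 CPM in control (log2 fold change -1.10) and shares 873 exon bases with Hmgxb3 on the opposite strand. Cd68 averaged 26.5 CPM in NEC and 10.7 CPM in control (1.31), without overlap. General leukocyte markers summed to between 26.6 and 33.3 CPM in NEC and to between 22.1 and 31.4 CPM in control, tuft cell markers to between 1.86 and 8.86 CPM in NEC and to between 1.89 and 7.44 CPM in control. Goblet cell markers summed to between 702 and 1433 CPM in NEC and to between 676 and 1164 CPM in control, but single goblet genes differed in sign. Clca1 (-2.25) was lower, and Spink4 (2.37) and Agr2 (1.09) were higher, in every NEC library than in any control, and 0 of the 6 passed the edgeR test (3 at an unadjusted p below 0.05). Paneth cell markers summed to between 60.9 and 469.97 CPM in NEC and to between 44.2 and 117 CPM in control, and single genes differed in sign. Mmp7, whose exons overlap AV064505 on the opposite strand, rose (4.42, SE 0.67, edgeR adjusted p = 0.0419). Ang4 (-1.29, SE 0.69) was lower in every NEC library than in any control without passing. Lyz1 (1.85) and Defa24 (1.84) were positive with overlapping groups. Red cell markers summed to between 337 and 1683 CPM in NEC and to between 145 and 213 CPM in control, with all 3 higher in every NEC library and 0 past the edgeR test (3 at an unadjusted p below 0.05). The part of these markers in the values of Gsdmd, Casp1 and the gasdermin C genes was not tested.

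Genes whose profiles over the 6 libraries were most like those of Casp1 and of the gasdermin C sum were found by the root mean square difference of log2 CPM, each profile centred on its own mean, among 15456 named genes. For Casp1 these were D11Wsu47e (0.0629 log2 units), Foxo4 (0.0717), Lipo3 (0.0870), Tmem126b (0.0936) and Cmtm8 (0.108). For the gasdermin C sum they included Hist1h4k (0.157), Lhfpl5 (0.160), Cpvl (0.167) and Ntm (0.189), which all averaged under 1 CPM in both groups. With 6 libraries and many genes, small differences of this kind arise readily, and they carry no test.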

How the data were processed

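Per the labels' protocols, RNA of 6 mouse intestinal samples gave paired reads of 150 bp. The authors deposited 1 table of raw gene counts, and mm10 is the build in the submitters' processing notes. No aligner, counter, annotation or strand setting is named in the labels. Of 54446 identifiers, 54409 matched a gene symbol. The test was that of edgeR 4.0.16 under R 4.3.3 (filterByExpr with a minimum count of 10, TMM, robust quasi-likelihood F test, Benjamini-Hochberg adjustment over 19176 genes, called at adjusted p below 0.05). SE and 95% intervals come from the same fit. Positions, exon lengths and transcripts are those of GENCODE M21, and promoters those of RefSeq.

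The members, lists, tests and alternatives were chosen with earlier results of these data known. Named genes were all members, the called genes of each other list or else up to 3 with the smallest p, and 5 alike genes per pattern, and a few genes so chosen are not reported here. Casp8, Il18, Irf8, Naip1, Naip2, Aim2, Mefv, Nlrp10, Gbp2b, Igtp and marker genes given as examples were named after their values were seen. On simulated counts for NEC versus control over 19176 genes, 0%, 42%, 84% and 94% of 50 genes each were recovered at log2 changes of 1, 2, 3 and 4, and 6 of 116 calls were unchanged genes. No 2 libraries agreed within sampling noise. Alternatives used DESeq2 1.42.0 and limma 3.58.1 (voom), other scalings and filters, a replicate block, the sample code and each library left out.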

Additional observations from a re-analysis of the deposited data

How the results depend on the processing

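The count of 135 genes called over the whole table was 247 with no low-count filter, 1446 by DESeq2, 141 by limma-voom, 243 with the sample code as a term, 25 within AG181017 and between 0 and 106 with 1 library left out. Replicate numbers showed no clear pairing: deviations of same-numbered libraries from their group mean correlated at -0.141, 0.269 and -0.00704 (Pearson, across genes). Only number 2 correlated best with its own number. The largest value, 0.358, was that of NEC replicate 1 with control replicate 3, the libraries of code AG181028. Centring so few libraries constrains these values, so they cannot exclude a pairing. With the replicate number as a block 54 genes were called, 0 of the 10 members, 2 GTPases and 0 transcription factors. DESeq2 called 2 of the 10 members, 3 other sensors, 3 cytokine and receptor genes, 3 other proteases, 7 GTPases and 2 transcription factors. Without a low-count filter 1 cytokine or receptor gene, 1 other protease and 2 transcription factors were called. Transcription factors also had 2 calls by limma-voom, with the filter of 50 counts, with the sample code as a term and with counts divided by 4 (an alternative chosen after seeing the data), and 0 within AG181017. GTPases had 2 calls with library size alone and 1 within AG181017. With 1 library left out, calls ran from 0 to 2 among GTPases, were 0 among transcription factors and ran from 0 to 1 among other proteases, the 1 arising without control replicate 2. The direction of the gasdermin C sum, Casp1, Casp4, Gsdmd, Gsdmc3, Gsdmc4 and Nlrp6 was negative in all 17 alternatives. Signs turned for Pycard with limma-voom (-0.0034), the block (-0.00076), the code (-0.014) and without NEC replicate 2 (-0.20), NEC replicate 3 (-0.055) or control replicate 3 (-0.11). They turned for Gsdmc2 within AG181017 (0.11) and without NEC replicate 1 (0.23), for Nlrp3 without NEC replicate 2 (-0.19) or control replicate 2 (-0.16), and for Nlrc4 without NEC replicate 2 (0.047). They also turned for Gsdma with limma-voom (-0.095), the block (-0.028), the code (-0.035) and without NEC replicate 2 (-0.33), for Ninj1 without NEC replicate 3 (-0.026), and for Casp8 with library size alone (0.034) and without NEC replicate 2 (0.017), NEC replicate 3 (0.029) or control replicate 2 (0.12). With 1 library left out, values ran up to 0.40 for Pycard, 1.63 for Nlrp3, 0.85 for Ninj1 and 0.59 for Gsdma, and down to -0.41 for Gsdmc2, -0.41 for Nlrc4 and -0.15 for Casp8. The cause was not tested. Depth limits Nlrp3, with at most 36 counts in a library, and Gsdmc, which did not pass the low-count filter.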
